A study of Homo sapiens with 6 samples.

Results

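The genes described here make, conjugate and carry bile acids, together with the hormone FGF19 and its receptor complex, which restrain that synthesis. They are the exporter ABCB11, the uptake carrier SLC10A1, the synthesis enzymes CYP7A1, CYP8B1, CYP27A1 and AKR1D1, the conjugating enzyme BAAT, the ligand FGF19, the receptor FGFR4 and its coreceptor KLB. The members were listed by symbol, and all 10 of 10 had a probe set among the 23934 named probe sets of the array. They were chosen with earlier results of the same comparison known, so their differences between the groups are given as a description, without a test.

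The study grew 6 subcutaneous tumours in nude mice from Huh7 cells, an established human hepatocellular carcinoma line, and profiled each on 1 Affymetrix array. The cells of the 3 IR-A tumours carried the plasmid pRcCMVi.hIR-A(GFP) for human insulin receptor isoform A, and those of the 3 control tumours carried the empty vector. Both kinds of cell had been stably transfected, selected with G418 and sorted for GFP. Whether each line was 1 clone or a pool, and which mouse each tumour came from, is not given in the sources used here, so any p-value reflects spread among samples that may be technical repeats. The values are log2 signals, so a difference of 1 is a doubling, and every difference is given as IR-A minus control.

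Hepatocytes make bile acids from cholesterol. CYP7A1 starts the classic route, CYP27A1 the alternative one, CYP8B1 adds the hydroxyl group that makes cholic acid, and AKR1D1 reduces the steroid ring. BAAT joins the product to glycine or taurine, ABCB11 pumps the bile salts into the canaliculus, and SLC10A1 takes them back up from the blood. In humans FGF19 is normally released by the ileum when bile acids return, and it acts on hepatocytes through FGFR4 with KLB to lower CYP7A1. Hepatocellular carcinomas can make FGF19 themselves.

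Promoter windows are shown for 3 members: the exporter and the ring reductase, the pair with the largest positive differences, and the uptake carrier, whose groups overlapped. Each runs from 250 bases before the gene's start to 50 after it, 5′ to 3′ on the gene's strand, and comes from RefSeq on GRCh38.p14. ABCB11 lies on the minus strand at chr2:169031275-169031574, AKR1D1 on the plus strand at chr7:138076209-138076508, and SLC10A1 on the minus strand at chr14:69797192-69797491. Capitals mark the letters that matched a searched motif.
ABCB11: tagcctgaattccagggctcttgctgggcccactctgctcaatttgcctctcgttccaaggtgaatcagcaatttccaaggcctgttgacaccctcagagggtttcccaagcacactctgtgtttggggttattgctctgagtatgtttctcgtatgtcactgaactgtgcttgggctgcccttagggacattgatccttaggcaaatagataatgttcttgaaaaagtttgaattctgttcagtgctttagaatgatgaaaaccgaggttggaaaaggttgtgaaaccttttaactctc
AKR1D1: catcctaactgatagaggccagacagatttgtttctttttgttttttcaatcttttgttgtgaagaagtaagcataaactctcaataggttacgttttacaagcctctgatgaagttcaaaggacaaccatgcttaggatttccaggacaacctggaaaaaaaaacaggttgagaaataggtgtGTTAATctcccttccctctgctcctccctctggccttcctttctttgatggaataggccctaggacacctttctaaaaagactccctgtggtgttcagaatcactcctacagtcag
SLC10A1: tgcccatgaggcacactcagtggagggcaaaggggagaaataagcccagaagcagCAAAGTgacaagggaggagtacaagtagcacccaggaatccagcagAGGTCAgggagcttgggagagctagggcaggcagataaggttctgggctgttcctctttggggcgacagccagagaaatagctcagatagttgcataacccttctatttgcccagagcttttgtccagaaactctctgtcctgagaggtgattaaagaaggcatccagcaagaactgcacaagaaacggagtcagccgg

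Motifs were searched on both strands. None of the 5 motifs searched occurs in the ABCB11 window. The AKR1D1 window held GTTAAT, a half-site of the HNF1 type found in 6.88% of windows. The SLC10A1 window held AGGTCA, a nuclear receptor half-site found in 13.8% of windows, and CAAAGT, part of the HNF4 motif, found in 11.9%. TCAAGG, part of the NR5A motif, is in none of these 3 windows and in 12.3% of all windows. The TATA box letters, TATAAA, are in none of these 3 windows either and in 11.5% of all windows. The NR5A and nuclear receptor letters can overlap within a longer site. A match describes letters and shows no binding, and the lack of one says only that these letters are not in the window.

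The arrays were similar in scale, with medians from 4.67 to 4.71 in IR-A tumours and from 4.66 to 4.74 in control tumours. INSR, the transgene's own gene, read 10.65 to 11.31 in IR-A tumours and 7.61 to 8.47 in control tumours, with no overlap. Control tumour 2 resembled the IR-A tumours more than its own group, with a mean correlation across probe sets of 0.987 with IR-A tumours and 0.982 with the other controls. Member differences are therefore also given without it where they moved by more than 1.5 times, or as a range with 1 tumour left out. In limma's fit 0 of 24726 probe sets, members included, passed an adjusted p of 0.05, while 3493 (14.1%) had an unadjusted p under 0.05. Without control tumour 2, 308 probe sets passed. With 3 tumours a group, no exact permutation test of a single gene can reach a p below 0.1.

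Signals for export and for 3 synthesis enzymes were higher in IR-A tumours, the FGF19 signal was lower, and FGFR4 hardly differed. Of the 10 members, 5 lay wholly above the controls in all IR-A tumours, namely ABCB11, CYP8B1, CYP27A1, AKR1D1 and KLB, and 2 lay wholly below them, FGF19 and FGFR4. Among all probe sets the groups did not overlap in 17.2%, with IR-A above in 7.73% and IR-A below in 9.45%. The members' median difference was 0.47, or 0.29 without control tumour 1, against -0.03 over all probe sets. Because the members were chosen with this contrast known, nothing is read from these shares. In bulk tumours, fewer cells of a type and less RNA per cell cannot be told apart.

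**Figure D1:**
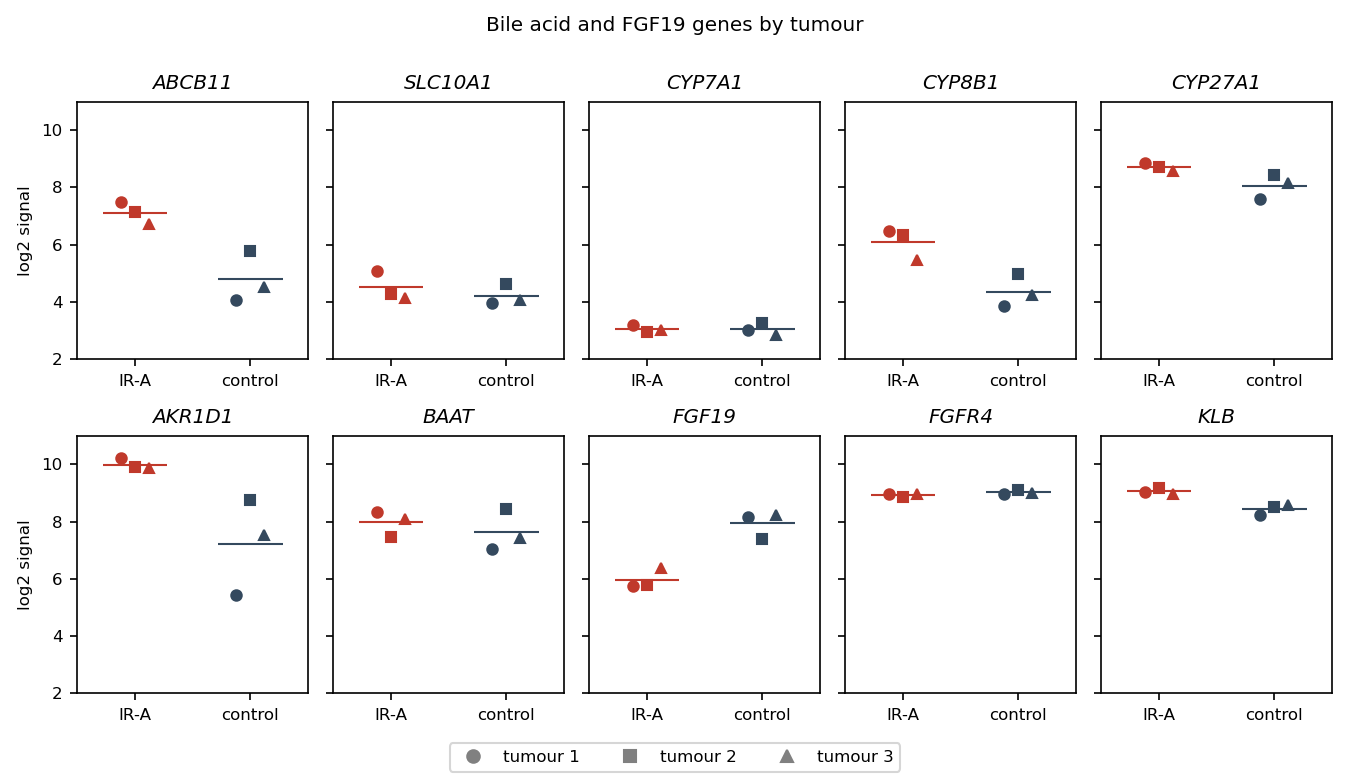
The log2 signal of each of the 10 genes is plotted by tumour, with IR-A tumours on the left and control tumours on the right of each panel, marker shapes for tumours 1 to 3 and a line at each group's mean. ABCB11, CYP8B1 and AKR1D1 lie higher and FGF19 lower in all 3 IR-A tumours, while FGFR4 is nearly flat and CYP7A1 is dim in all 6.

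ABCB11, the bile salt export pump, read 7.49, 7.14 and 6.74 in IR-A tumours 1 to 3, against 4.06, 5.78 and 4.54 in control tumours 1 to 3. Every IR-A tumour was above every control, with a gap of 0.96 between the nearest tumours. Group means were 7.12 ± 0.38 in IR-A and 4.79 ± 0.89 in control tumours (SD, n = 3 each), a difference of 2.33 (SE 0.44) or 5.03-fold. With 1 tumour left out, the difference lay between 1.96 and 2.82. Control tumours 1 and 3 lay under the median of all values (4.70) for ABCB11, so its difference may be compressed. SLC10A1, the sodium-dependent uptake carrier, did not follow. It read 5.08, 4.29 and 4.15 in IR-A tumours and 3.98, 4.63 and 4.06 in control tumours, a difference of 0.28 (SE 0.29). The groups overlapped, IR-A tumour 1 was the highest of all 6, and without it the difference was 0.00. Without control tumour 2 the difference was 0.48, and without control tumour 1 it was 0.16. The exporter thus lay apart between the groups, and this uptake carrier did not. SLC10A1 was dim, with means of 4.51 in IR-A and 4.22 in control tumours under the median of all values (4.70). A difference in it may therefore be compressed, and other uptake transporters are described below.

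AKR1D1, the steroid 5-beta-reductase of bile acid synthesis, had the largest difference among the members. It read 10.21, 9.91 and 9.86 in IR-A tumours, against 5.43, 8.74 and 7.54 in control tumours. The IR-A tumours lay within 0.35 of each other, while the controls spanned 3.31, the widest range of any member in either group. Means were 9.99 ± 0.19 in IR-A and 7.24 ± 1.67 in control tumours (SD, n = 3 each), a difference of 2.76 (SE 0.76) or 6.76-fold. How large it was depended on the controls: it was 1.85 without control tumour 1 and 3.51 without control tumour 2. The sign was positive in each case.

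CYP8B1, the sterol 12-alpha-hydroxylase that sets the share of cholic acid, read 6.49, 6.33 and 5.46 in IR-A tumours and 3.86, 4.99 and 4.24 in control tumours. The groups were apart by 0.47, and IR-A tumour 3 was the IR-A value nearest to the controls. The means of 6.09 ± 0.56 in IR-A and 4.36 ± 0.57 in control tumours (SD, n = 3 each) differed by 1.73 (SE 0.37) or 3.32-fold. With 1 tumour left out, this difference lay between 1.48 and 2.05. The control mean of CYP8B1 lay under the median of all values (4.70), so its difference may be compressed. CYP27A1, a mitochondrial sterol 27-hydroxylase, read 8.87, 8.71 and 8.58 in IR-A tumours and 7.60, 8.44 and 8.15 in control tumours. Here the groups were only 0.14 apart, and control tumour 2 was the nearest. Its difference of 0.66 (SE 0.22) was 0.43 without control tumour 1 and 0.85 without control tumour 2.

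CYP7A1, the rate-limiting enzyme of the classic route, read 3.18, 2.96 and 3.02 in IR-A tumours and 3.03, 3.26 and 2.85 in control tumours. All 6 values lay under the lower quartile of the array's values (3.41), the groups overlapped and the difference was 0.01 (SE 0.13). With 1 tumour left out, the difference lay between -0.09 and 0.11. At so dim a signal a difference in transcript was not detectable, which does not show that there was none. BAAT, which conjugates bile acids, read 8.35, 7.48 and 8.10 in IR-A tumours and 7.04, 8.45 and 7.43 in control tumours. The highest BAAT value of all belonged to control tumour 2, and the groups overlapped. Its difference of 0.33 (SE 0.39) was 0.74 without control tumour 2, 0.03 without control tumour 1, 0.15 without IR-A tumour 1 and 0.58 without IR-A tumour 2, so 1 tumour decided its size. Of the 5 synthesis and conjugation genes, therefore, 3 lay apart between the groups and CYP7A1 and BAAT did not.

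**Figure D2:**
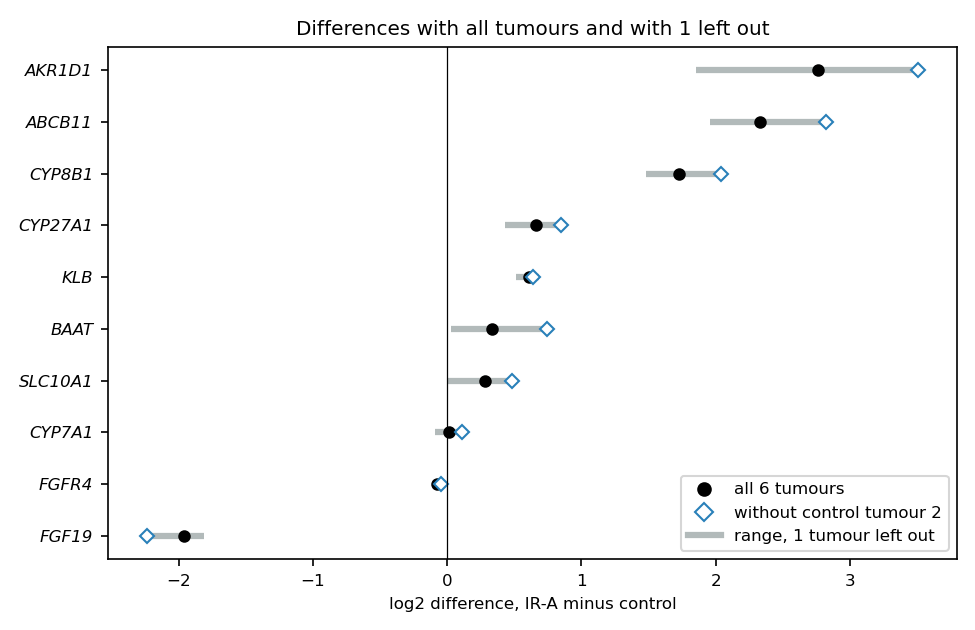
The horizontal axis is the log2 difference, IR-A minus control, for each gene. Black points use all 6 tumours, diamonds leave out control tumour 2, and grey bars span the 6 values with 1 tumour left out. AKR1D1 has the widest bar, from 1.85 to 3.51, and the bars of SLC10A1 and CYP7A1 reach 0.

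FGF19 was the 1 member with a marked difference in the other direction. It read 5.77, 5.78 and 6.37 in IR-A tumours, against 8.17, 7.39 and 8.25 in control tumours. Every IR-A tumour lay below every control, by at least 1.02. Means were 5.97 ± 0.34 in IR-A and 7.93 ± 0.48 in control tumours (SD, n = 3 each), a difference of -1.96 (SE 0.28), or 3.90-fold lower in IR-A tumours. Leaving out any 1 tumour gave -2.24 to -1.81, so no single tumour set its size.

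FGF19 lies on chromosome 11 near the cyclin gene CCND1. None of the 7 measured neighbours had a difference near that of FGF19. Of these, 1 lay above 0 and 6 below it, while 44% of all probe sets lay above 0. CCND1 read 9.50, 9.12 and 9.54 in IR-A tumours, against 9.75, 9.60 and 9.83 in control tumours, a difference of -0.34, or -0.20 without IR-A tumour 2. For CCND1 the IR-A tumours lay wholly below the controls, as in 9.45% of all probe sets. The others differed by -0.41 (LTO1), -0.37 (FGF3), -0.22 (FGF4), -0.05 (FADD), -0.04 (MYEOV) and 0.08 (ANO1), and the lowest adjusted p of the 7 was 0.354 in limma. For LTO1 the highest value was that of control tumour 2, without which the difference was -0.07. Without the same tumour FGF4 differed by -0.36, and without control tumour 3 FGF3 differed by -0.24. The IR-A means of MYEOV, FGF4, FGF3 and ANO1 lay under the median of all values (4.70), so a difference in these dim genes may be compressed.

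**Figure D3:**
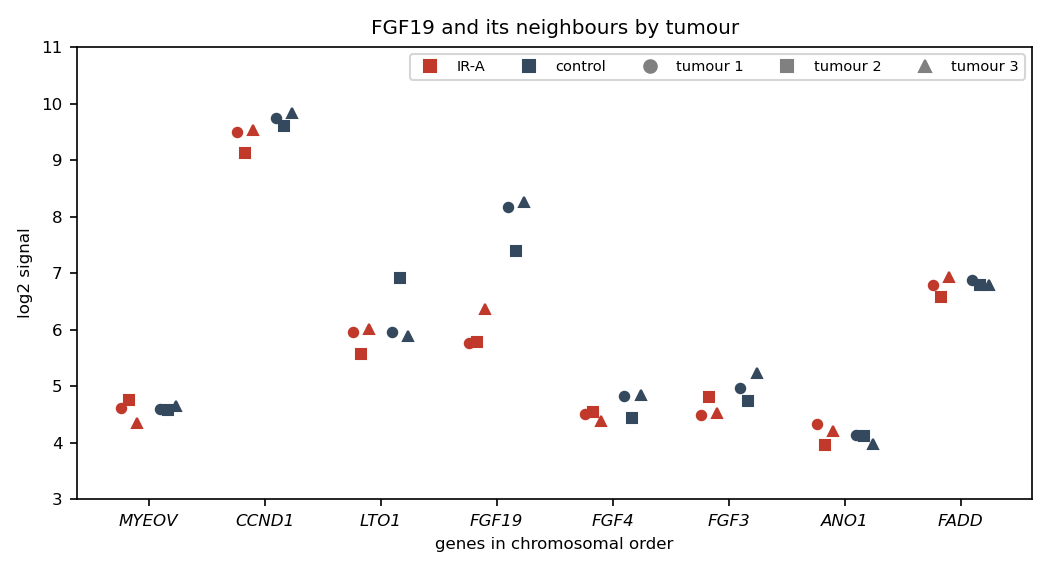
The log2 signal of FGF19 and 7 measured genes around it on chromosome 11 is plotted by tumour, in chromosomal order, with IR-A tumours left of control tumours for each gene and marker shapes for tumours 1 to 3. FGF19 is the gene with the wide gap between the groups, a difference of -1.96, while its neighbours lie between -0.41 and 0.08.

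The receptor side differed less. FGFR4, the receptor tyrosine kinase through which FGF19 acts on hepatocytes, read 8.96, 8.87 and 8.98 in IR-A tumours and 8.98, 9.09 and 8.99 in control tumours. The difference was -0.08 (SE 0.09), or -0.10 to -0.05 with 1 tumour left out. The nearest tumours of the groups were equal to within rounding (gap 0.00). With each array centred on its median the groups overlapped. KLB, the beta-Klotho coreceptor that FGF19 needs to bind FGFR4, read 9.03, 9.16 and 8.98 in IR-A tumours and 8.24, 8.50 and 8.59 in control tumours. All IR-A values were higher, with means of 9.06 ± 0.09 in IR-A and 8.44 ± 0.18 in control tumours (SD, n = 3 each). The difference of 0.61 (SE 0.12) was 1.53-fold and stayed between 0.51 and 0.68 with 1 tumour left out. Ligand and coreceptor thus differed in opposite directions between the groups, while the receptor's signal was near level.

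Within the groups, the tumours kept a similar order for many of the members. Control tumour 2 was the highest control for 8 of 10 (ABCB11, SLC10A1, CYP7A1, CYP8B1, CYP27A1, AKR1D1, BAAT and FGFR4) and the lowest for FGF19. Over all probe sets it was the highest control in 31.4% and the lowest in 41.9%. Control tumour 1 was the lowest control for 8 members, against 25.9% of all probe sets. Among IR-A tumours, tumour 1 was the highest for 7 members, all of them transport, synthesis or conjugation genes, against 29.4% of all probe sets. FGF19 was nearly equal in IR-A tumours 1 and 2. Control tumour 2 also had the highest control mean in each other pathway list. The mean over the other transport genes was 6.30, 6.95 and 6.62 in control tumours 1 to 3. That over the regulators was 6.31, 6.48 and 6.40, and that over the detoxification genes was 5.17, 5.99 and 5.43. Control tumour 3 was instead the lowest for the other synthesis genes (6.18, 6.47 and 6.14) and the FGF receptor and signalling genes (6.34, 6.40 and 6.26). The members were chosen for their contrast, control tumour 2 resembled the IR-A tumours across the array, and all members share the same arrays, so this order is a description and no separate support.

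Genes of the same pathways that are not members were tested in the same fit. Of 65 listed genes, 54 had a named probe set, 0 passed an adjusted p of 0.05 in limma in either direction, and at an unadjusted p under 0.05 there were 11 higher and 3 lower in IR-A tumours. Over all probe sets 7.10% were higher and 7.03% lower at that level. The lowest adjusted p among the 54 was 0.147. The other 11 genes were not analysed here.

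**Figure D4:**
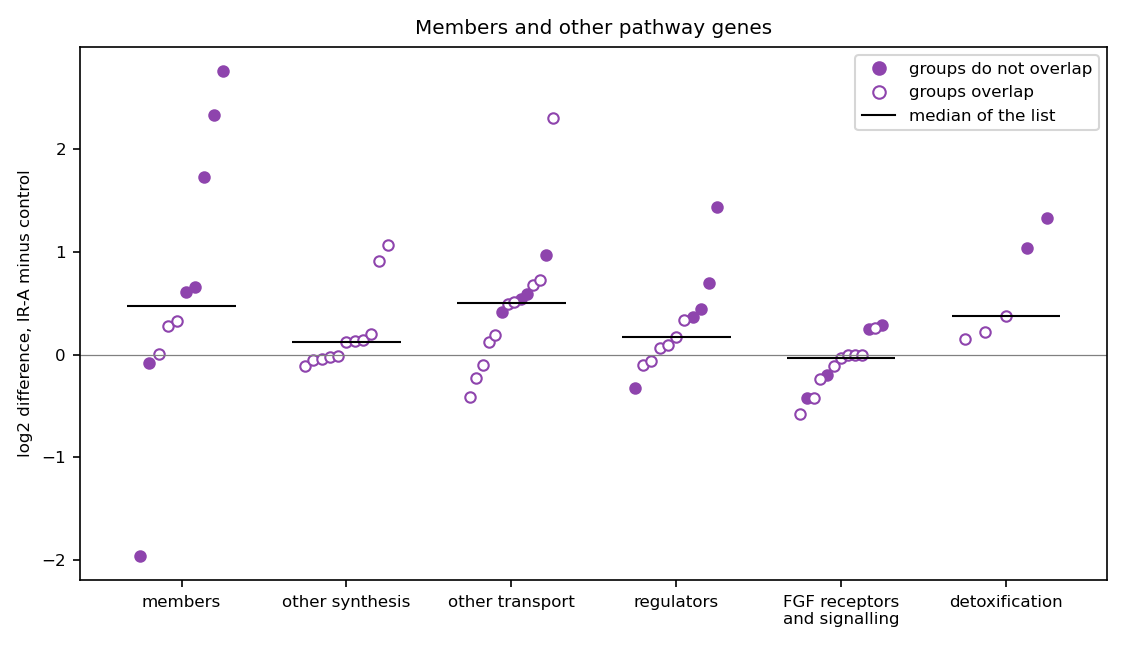
Each point is the log2 difference, IR-A minus control, of 1 gene, grouped by list. Filled points are genes whose groups did not overlap, open points overlapped, and a line marks each list's median, which is 0.47 for the members, 0.50 for other transport genes and -0.03 for FGF receptors and signalling.

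Other transport genes had 11 of 14 measured members above 0, a median difference of 0.50 and 4 members with IR-A tumours wholly above the controls. Over all probe sets 44% lay above 0 and 7.73% had IR-A tumours wholly above. SLCO2B1, an organic anion uptake transporter, read 9.52, 9.17 and 9.16 in IR-A tumours, against 7.68, 8.69 and 8.55 in control tumours, a difference of 0.97 (adjusted p = 0.214 in limma). ABCG8, which with ABCG5 secretes cholesterol into bile, differed by 0.54 (adjusted p = 0.221 in limma). SLCO1B1, a hepatocyte uptake transporter of bile acids and drugs, read 8.25, 6.96 and 6.73 in IR-A tumours and 4.23, 6.83 and 4.00 in control tumours. Control tumour 2 lay among the IR-A tumours for SLCO1B1, so its groups overlapped. Its difference of 2.30 (adjusted p = 0.285 in limma) was 3.20 without that tumour, where it passed (adjusted p = 0.0499 in limma). The ileal genes SLC10A2 and FABP6, which belong to the intestine where FGF19 is normally made, read at most 3.57 and 4.87 in any tumour. FABP6 was among the 4 transport genes with IR-A tumours wholly above the controls, with a difference of 0.41 (adjusted p = 0.308 in limma). Other enterocyte markers varied in signal. Over all 6 tumours VIL1 read 8.96 to 9.90 and CDX2 6.02 to 6.91, while FABP2 read at most 2.75.

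Other synthesis genes were split, with 6 of 11 above 0, a median of 0.12 (0.02 without control tumour 2) and 0 whose groups did not overlap. Over all probe sets 44% lay above 0 and the groups did not overlap in 17.2%. AKR1C4, a ketosteroid reductase that acts after AKR1D1, read 6.46, 5.43 and 5.75 in IR-A tumours and 4.65, 5.48 and 4.31 in control tumours (difference 1.07, adjusted p = 0.282 in limma). Only control tumour 2 reached into the IR-A range. SLC27A2, an acyl-CoA synthetase, differed by 0.91 (adjusted p = 0.413 in limma), or by 1.41 without control tumour 2, and HSD17B4, a peroxisomal enzyme of side-chain shortening, by 0.13 (adjusted p = 0.730 in limma), or by 0.21 without control tumour 2 and 0.02 without control tumour 1.

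Among regulators, 8 of 11 lay above 0, with a median of 0.17, while 44% of all probe sets lay above 0. PPARGC1A, a coactivator of hepatic nuclear receptors, read 6.76, 7.33 and 6.24 in IR-A tumours, against 5.14, 5.49 and 5.38 in control tumours, a difference of 1.44 (adjusted p = 0.147 in limma). NR0B2, the small heterodimer partner that represses bile acid synthesis genes, read 8.71, 8.02 and 8.66 in IR-A tumours and 7.56, 8.02 and 7.70 in control tumours, a difference of 0.70 (adjusted p = 0.242 in limma). For NR0B2, control tumour 2 came within rounding of IR-A tumour 2. NR5A2, which promotes CYP8B1 transcription in hepatocytes, differed by 0.44, from 8.46 to 8.85 in IR-A tumours against 7.99 to 8.43 in control tumours. MAFG, a repressor of bile acid synthesis genes in mouse liver, differed by -0.33 (adjusted p = 0.298 in limma). The activator PPARGC1A and the repressor NR0B2 were thus both higher in signal in the IR-A tumours, without passing.

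Of the other FGF receptors and their signalling genes, 4 of 13 lay above 0 and 9 below it. Their median was -0.03, or -0.11 without control tumour 2. Over all probe sets 44% lay above 0 and the median was also -0.03. FGFR3 read 8.02 to 8.13 in IR-A tumours and 7.53 to 7.94 in control tumours (difference 0.29, or 0.15 without control tumour 1). FGFR1 read 3.54 to 3.69 in IR-A and 3.57 to 4.24 in control tumours, and FGFR2 read 4.19 to 4.76 in IR-A and 3.94 to 4.42 in control tumours. Both receptors lay near or under the median of all values (4.70) in every tumour. KL, the Klotho of FGF23 signalling, read 3.67 to 3.76 in IR-A and 3.52 to 3.91 in control tumours, also dim. The feedback inhibitors of receptor tyrosine kinase signalling differed among themselves. SPRY1 differed by -0.42 (adjusted p = 0.295 in limma) and its groups did not overlap. SPRY4 differed by -0.42 (adjusted p = 0.355 in limma), or by -0.27 without control tumour 2, and SPRY2 by -0.03, or by 0.11 without control tumour 2. The ERK phosphatase DUSP6 read 9.45, 8.94 and 9.87 in IR-A tumours and 10.20, 9.87 and 9.95 in control tumours, so its groups met. Its difference of -0.58 (adjusted p = 0.341 in limma) was -0.34 without IR-A tumour 2.

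Most hepatocyte markers were bright. Albumin read 12.99 to 13.09 in IR-A and 12.82 to 13.04 in control tumours, while KRT8 read 6.06 to 6.41 in IR-A and 6.29 to 6.68 in control tumours. Of the 11 measured hepatocyte markers 8 lay above 0, while 44% of all probe sets did. The mean over that list was 11.35 to 11.43 in IR-A tumours and 11.11 to 11.30 in control tumours, so it was higher in all IR-A tumours. List means of other cell types were higher in IR-A tumours too in several cases. Fibroblast markers had 5 of 7 above 0 with list means of 4.92 to 5.08 in IR-A and 4.44 to 4.88 in control tumours. LUM differed by 1.26, COL1A2 by 0.83 and COL1A1 by 0.40, with IR-A tumours wholly above the controls, as in 7.73% of all probe sets. PDGFRA went the other way by -0.87, or by -0.21 without control tumour 1, and its groups overlapped. COL3A1 differed by 0.10 with overlap, and DCN lay at 2.56 to 2.58 in all 6 tumours. Macrophage markers had 4 of 7 above 0 with list means of 5.14 to 5.28 in IR-A and 4.70 to 4.97 in control tumours. TYROBP differed by 1.78 (6.89 to 7.47 in IR-A, 4.88 to 5.96 in control tumours) and CD68 by 0.62, both without overlap, and PTPRC was at or below 2.99 in all 6 tumours. Cholangiocyte markers had 5 of 6 above 0 (5.90 to 6.07 in IR-A, 5.59 to 5.84 in control tumours), enterocyte markers 5 of 8 (4.90 to 5.06 in IR-A, 4.68 to 4.92 in control tumours) and endothelial markers 2 of 7 (3.92 to 3.95 in IR-A, 3.84 to 4.02 in control tumours). The tumours grew from a human line in mice, so any cells in them other than Huh7 cells were mouse cells. The markers are human genes, so their signals are no measure of human stromal or immune cells. Which cells gave these signals, and their part in the differences of the bile acid genes, was not tested.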

How the data were processed

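The deposited log2 signals cover 24726 probe sets, of which 792 have no symbol here. The authors' table was made with RMA and Partek, per the submitters' processing notes, which give no versions. The log2 scale was read from the values, while the sources used here do not give the probe set definition or genome build. RMA compresses differences of dim probe sets. Any 2 arrays had at most 4.15% of values in common. Depth does not apply to arrays, whose number limits the precision.

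Groups came from the sample titles. IR-A and control tumours were compared with limma 3.58.1 in R 4.3.3 (lmFit, eBayes), with p-values adjusted by Benjamini-Hochberg across the whole table and a threshold of 0.05, and SEs are the moderated ones. The script was checked on simulated data. Members, lists and motifs were chosen with earlier results of these data known. All members were named, and of each other pathway list the 3 genes of smallest unadjusted p, plus INSR, NR0B2, NR5A2, FGFR1, FGFR2, FGFR3, KL and the measured neighbours of FGF19. Genes named outside this rule, such as the ileal genes and cell type markers, were chosen after their values were seen. RefSeq promoter windows were searched for 7 of 10 members. FGF19 and CYP8B1 had no window, and CYP7A1 was left out of the search. Alternatives were quantile normalization, median centring, dropping the 25% or 50% dimmest probe sets, a trend of variance with intensity, robust moderation, array weights, a replicate block, looser thresholds and leaving out each tumour.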

Additional observations from a re-analysis of the deposited data

How the results depend on the processing

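In the 9 settings that can change a difference of means (both scalings, array weights and each tumour left out), 8 of the 10 members kept the sign of their difference. The exceptions were SLC10A1, which kept it in 8 of 9 (0.00 to 0.48), and CYP7A1, which kept it in 6 of 9 (-0.09 to 0.11). The 117 alternative member values all lay within 1 within-group SD of the reported one. For most of these values no other outcome was possible. Dropping dim probe sets and the replicate block cannot move a difference. Leaving out 1 of the 3 tumours in a group always moves the difference by less than that SD. Only the values from quantile normalization, median centring and array weights could have lain further away, and they did not. The members' median of 0.47 ran from 0.44 (quantile normalization) to 0.64 (without the dimmest 50%), and from 0.29 to 0.69 with 1 tumour left out. The number of members whose groups did not overlap, 7 as reported, was 6 with medians centred and 7 to 9 with 1 tumour left out. Leaving out a tumour cannot make separate groups overlap, so that count could not fall and shows no stability. The share over all probe sets was not taken at these settings. Probe sets called numbered 0 as reported, 14 without the dimmest 25%, 20 without the dimmest 50%, 11 with array weights, 18 at an adjusted p under 0.1 and 3493 at an unadjusted p under 0.05. It was 0 to 308 with 1 tumour left out, with calls only without control tumour 2. Of the other pathway genes 0 were called, 14 at an unadjusted p under 0.05, and 0 to 2 with 1 tumour left out. These were SLCO1B1 and SULT2A1, without control tumour 2. Same-numbered tumours did not deviate together (correlations of -0.29, -0.36 and 0.02). Deviations within a group cancel out, so these correlations are tied to each other and cannot tell whether the tumours were paired. With the replicate block 0 probe sets were called and the members' median was 0.47. Why the values moved was not tested. Signal over background was not given per probe set, so dim genes such as CYP7A1 have the least certain differences.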

Other observations

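Of the genes that detoxify bile acids, 5 of 5 measured lay above 0, with a median difference of 0.38 (0.64 without control tumour 2). In limma 0 passed an adjusted p of 0.05, and 2 were higher at an unadjusted p under 0.05. Over all probe sets 44% lay above 0 and 7.10% were higher at that unadjusted level. SULT2A1, the sulfotransferase of bile acids and steroids, read 10.19, 10.07 and 9.76 in IR-A tumours, against 7.75, 9.71 and 8.56 in control tumours. Its difference of 1.33 (adjusted p = 0.282 in limma) was 1.85 without control tumour 2, where it passed (adjusted p = 0.0499 in limma), and 0.87 without control tumour 1. EPHX1, the microsomal epoxide hydrolase, read 9.83, 9.44 and 9.30 in IR-A tumours and 8.01, 9.09 and 8.35 in control tumours (difference 1.04, adjusted p = 0.212 in limma). UGT2B7, a glucuronosyltransferase, was dim and differed by 0.22 (adjusted p = 0.521 in limma), or by 0.12 without IR-A tumour 3.

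As a measure of likeness without a test, Pearson's r was taken over the log2 values of the 6 tumours, both groups included. The genes most like ABCB11 were CCNG2, a cyclin (r = 0.999), ACSM2A, an acyl-CoA synthetase (0.997), and SIK2, a kinase (0.997). Those most like FGF19 were the histone gene H2BC6 (0.996), the ribosomal protein gene RPL13 (0.994) and TFAM, the mitochondrial transcription factor (0.993). Histone genes have near-identical copies, so the source of the H2BC6 signal is uncertain. These are the highest of 23933 values each, and much of each r is the difference between the groups.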
